A study of Mus musculus with 4 samples.

Results

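Nonclassical monocytes were taken from 2 libraries of mouse synovium, 1 from TNF+ mice and 1 from TNF- littermates. A barcode was kept with at least 500 UMIs (unique molecular identifiers, each a captured RNA molecule) and at most 20% mitochondrial UMIs. The cells were chosen by measured values, the UMIs of the genes named next, so these values are a description only. A kept barcode was called a nonclassical monocyte with at least 2 UMIs of Treml4 and Adgre4 together and at least 1 of Csf1r. It also had under 2 UMIs of Trem2, under 5 of Retnla, Mgl2 and Cd209a together, at most 5 of Col1a1 and Col1a2 together, and 0 of Cdh5. The rule found 104 cells among 6638 kept barcodes of the TNF- synovium and 183 among 3498 of the TNF+ synovium, or 287 of 10136. The 4 libraries of the series, which also cover lung, hold 30943 barcodes.

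TNF+ mice carry 1 copy of the human TNF gene (line name TNF-Tg) and are a model of erosive arthritis with pulmonary vascular disease. All mice were female, 4 months old and on a C57BL/6 background, and viable cells were sorted after red cell lysis. Synovium was pooled from 5 to 10 mice per genotype and digested with type II collagenase, and lung was pooled from 3 to 5 and digested with Collagenase A, Elastase and Dispase II. Each genotype and tissue gave 1 library, so no difference below has a replicate check, no test was made, and intervals (all 95%) cover counting error only.

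Nonclassical monocytes arise from classical Ly6c2-high monocytes under the transcription factors Nr4a1, Klf2 and Cebpb and crawl along the vessel wall, held by the integrin LFA-1, whose alpha chain is Itgal. They carry the Fc receptor Fcgr4, the fractalkine receptor Cx3cr1 and the sialoglycoprotein CD43, encoded by Spn. They are found in blood, in the vessels of tissues and, in arthritis, in the joint.

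As a set, the cells matched their label in both libraries, though a part of them with classical monocyte genes did so less well, as described below. Levels are given as CPM, the UMIs of a gene over all cells of the set, scaled to 1000000 UMIs. Itgal was at 1047 CPM in TNF- and 604 in TNF+ nonclassical monocytes, against 33.5 and 43.8 in all kept synovial barcodes. Spn was at 269 and 181 CPM, and Pou2f2, a B lymphocyte and monocyte transcription factor, at 613 and 294. None of the 18 markers of the type, which include the rule genes Treml4 and Adgre4, was missing in either library. The 12 classical monocyte markers summed to 3568 CPM in TNF- and 2912 in TNF+ cells. At least 3 of these UMIs were held by 101 TNF- and 148 TNF+ cells. Markers of the other cell types were present at low levels in many cells. Under 3 UMIs of T, B, NK, neutrophil, endothelial and mural markers together were held by 33 of the 104 TNF- and 137 of the 183 TNF+ cells. The 9 erythroid markers summed to 0 in both libraries. The 12 tissue macrophage markers summed to 343 UMIs in TNF- cells (263 CPM, against 225 in all kept barcodes) and 406 in TNF+ cells (254 CPM, against 607), and 23 and 11 cells held 3 or more of these UMIs. Of that list Adgre1, Mrc1 and the C1q genes were present, while Folr2, Lyve1, Timd4, Vsig4 and Cd5l were at 0 in both libraries. Endothelial markers reached 3 UMIs in 21 and 10 cells and fibroblast markers in 19 and 5. T cell markers summed to 69 UMIs in TNF- cells, of which 1 cell held 67, and to 1 UMI in TNF+ cells. Neutrophil markers summed to 1671 UMIs in TNF- cells, of which 1 cell held 1543, and to 133 in TNF+ cells. The part of these cells in the differences below was examined by leaving out the cells with 3 or more UMIs of the T, B, NK, neutrophil, endothelial and mural markers. The part of macrophage and fibroblast RNA was not tested.

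The libraries differed in ways that bear on all values. The median depth was 13057 UMIs per kept TNF- and 10204 per kept TNF+ synovial barcode, and 11566 and 7189 in the nonclassical monocytes. The mitochondrial limit removed 3.78% of TNF- and 17.6% of TNF+ synovial barcodes. The synovial libraries shared 5 barcode sequences, none of them in a nonclassical monocyte. Both Treml4 and Adgre4 were detected in 84 of the 104 TNF- and 139 of the 183 TNF+ cells. Cells with exactly 2 UMIs of Treml4 and Adgre4 numbered 5 and 26, with Itgal at 120 CPM in TNF- and 330 in TNF+. Barcodes just outside, with 1 UMI, numbered 15 and 52, with Itgal at 158 and 178 CPM. The cells at the Treml4 and Adgre4 edge thus had lower Itgal than the rest, on both sides of this limit. Other limits differed. Cells with exactly 1 Csf1r UMI, 5 TNF- and 12 TNF+, had Itgal at 807 and 865 CPM. Barcodes just outside the Trem2 limit, 5 TNF- and 21 TNF+, had it at 908 and 175.

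The share of nonclassical monocytes depended on what it was counted against. Of kept barcodes they were 1.57% (interval 1.28 to 1.90) in TNF- and 5.23% (4.52 to 6.02) in TNF+ synovium, a difference of 3.66 percentage points (2.90 to 4.50). Of barcodes with a Ptprc UMI, the pan-leukocyte gene, they were 9.01% and 13.1%, a difference of 4.10 points (1.65 to 6.51). Of barcodes with a UMI of Csf1r, the receptor that marks monocytes and macrophages, and without the stromal genes of the rule, they were 22.2% (18.5 to 26.3) and 16% (13.9 to 18.2). That share was lower in TNF+ synovium, by -6.25 points (-10.7 to -2.07). Nonclassical monocytes were thus a larger share of all synovial cells and of leukocytes in the TNF+ library but a smaller share of the Csf1r-positive cells, which numbered 468 and 1146. In lung the same rule gave 4.56% and 30.9% of kept barcodes, and 34.3% and 56.7% of Csf1r-positive ones. Shares of sorted live cells in pooled digests are not cell numbers in the tissue.

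**Figure D1:**
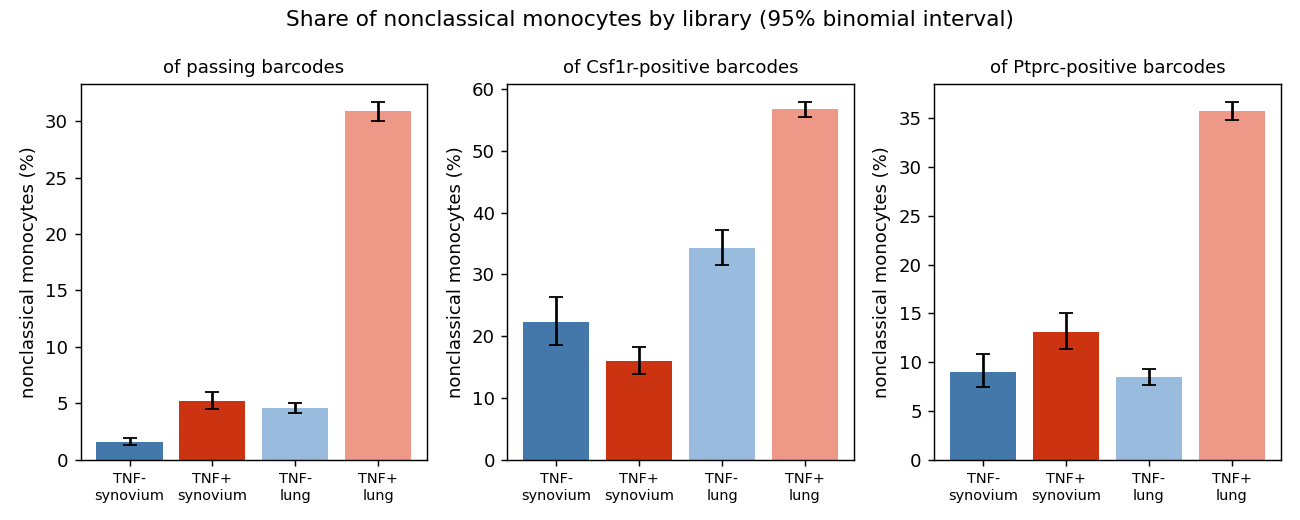
Share of nonclassical monocytes in each of the 4 libraries (vertical axes, percent) among kept barcodes, Csf1r-positive barcodes and Ptprc-positive barcodes. Bars are shares and whiskers exact 95% binomial intervals. In synovium the TNF+ bar is above the TNF- bar in the left and right panels (5.23% against 1.57% of kept barcodes) and below it in the middle panel (16% against 22.2%).

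Compared with the synovial Trem2 cells and Retnla, Mgl2 and Cd209a cells, 12 genes set nonclassical monocytes apart most. Of these, Cd300e, Ace, Pglyrp1 and Eno3 are among the 18 markers of the type. Cd300e, an activating receptor of monocytes, was at 162 CPM in TNF- and 119 in TNF+ nonclassical monocytes and at most 0.167 CPM in both other groups. Ace, the angiotensin-converting enzyme, was at 528 and 331 CPM and at most 3.86 CPM in the other groups. S1pr5, the sphingosine receptor needed for the egress of patrolling monocytes, was at 48.2 and 31.2 CPM and at 0 in the others. Pglyrp1, a peptidoglycan-binding protein, was at 202 and 243 CPM, Eno3 at 129 and 121, and the transglutaminase Tgm3 at 50.5 and 55.0. The other 6 genes of this group were Nfe2, Ccdc192, Scnn1a, Adgrv1, Plac8 and Lypd6b. Plac8 belongs to the list of classical monocyte markers. Of genes with at least 20 UMIs, 11.3% in the TNF- and 14.3% in the TNF+ library were at least 2-fold higher in nonclassical monocytes than in the pooled other cells. Trem2 cells numbered 33 in TNF- and 571 in TNF+ synovium, and Retnla, Mgl2 and Cd209a cells 171 and 29. The make-up of the pooled other cells thus differed between the libraries. Because these sets were cut with Treml4 and Adgre4, the named genes describe them and were not tested.

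Most genes of the type were lower in TNF+ than in TNF- synovium. Of the 18 markers, 4 were at least 2-fold lower and 0 at least 2-fold higher, with a median log2 ratio of TNF+ over TNF- of -0.51. The 18 include Treml4 and Adgre4, by which the cells were chosen, so the list is not independent of the rule. Over all 7822 genes with at least 20 UMIs, 10.6% were at least 2-fold lower, 6.89% at least 2-fold higher, and the median was -0.10. Nr4a1, the factor on which the cells depend, was at 732 CPM in TNF- and 151 in TNF+ cells, a log2 ratio of -2.28 (-2.49 to -2.07). Single TNF+ cells were low as well, since 91.8% of them were below the TNF- median and 88 of 183 had no Nr4a1 UMI, against 4 of 104. Cx3cr1 was at 232 and 78.1 CPM (-1.57, interval -1.88 to -1.26), Clec4a3, an inhibitory lectin, at 335 and 145 (-1.21), and Pou2f2 at 613 and 294 (-1.06). Fcgr4 was at 194 and 107 CPM (-0.86, -1.14 to -0.57). Gngt2, a G protein subunit, differed little, at 994 and 897 CPM (-0.15, -0.26 to -0.04), and Pglyrp1 was slightly higher in TNF+ cells (0.27, 0.04 to 0.50). In lung Nr4a1 was at 723 and 716 CPM and Cx3cr1 at 520 and 582, so that neither was lower by genotype there to a similar degree. Nr4a1 was also lower in the other TNF+ synovial cells, with 463 and 69.2 CPM in T cells and 472 and 58.7 in Trem2 cells. The 18 markers as a list had a median of -0.77 in Trem2 cells, -0.73 in Retnla, Mgl2 and Cd209a cells and -0.53 in T cells, over the 15, 13 and 8 genes that were counted there. Those sets were cut to under 2 UMIs of Treml4 and Adgre4 together, so their medians cover a differently chosen set of genes and cells. In Trem2 cells Pou2f2 was at 100 and 6.86 CPM and Cx3cr1 at 216 and 44.9. Lower medians of the list were thus seen in the other synovial cell sets of the TNF+ library too, although Pou2f2 in T cells was at 32.6 and 31.8 CPM.

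The cells were not uniform. At least 2 UMIs of Ly6c2 and Ccr2 together, both genes of classical monocytes, were found in 38 of 104 TNF- cells and 31 of 183 TNF+ cells. These cells were deeper, with a median of 15492.5 and 14004 UMIs against 10129 and 6510.5 for the rest. They had less Itgal, at 658 CPM against 1386 in the TNF- library and 167 against 773 in the TNF+ library. Spn was at 160 against 364 CPM in TNF- and at 17.8 against 245 in TNF+, and class II H2-Ab1 was higher in them, at 1599 against 571 and 1365 against 392. The Ly6c2 and Ccr2 cells of the TNF+ library thus held little of the CD43 gene. Their Pou2f2, Ace and Nr4a1 were at 49.1, 66.9 and 13.4 CPM, against 389, 433 and 205 in the rest. The label therefore holds less well for these 31 cells. The part of depth in this contrast was not tested. The differences in Hmox1 and Ifi27l2a described below were present on both sides of this split, with Hmox1 at 311 and 6853 CPM in the Ly6c2 and Ccr2 cells and at 299 and 8519 in the rest, and Ifi27l2a at 2180 and 232 and at 570 and 129.

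The genes with the highest TNF+ over TNF- ratios were led by antioxidant and heme-handling enzymes. Hmox1, heme oxygenase 1 (chr8:75093621-75100589), was at 305 CPM in TNF- and 8052 in TNF+ nonclassical monocytes, a log2 ratio of 4.72 (4.58 to 4.87). Every one of the 183 TNF+ cells held an Hmox1 UMI, while 46 of 104 TNF- cells held none, and 163 TNF+ cells were above the highest TNF- cell per UMI. With each cell thinned to 3000 UMIs, Hmox1 was detected in 30.4% of TNF- and 100% of TNF+ nonclassical monocytes, against 0 of 100 TNF- T cells, which allows up to 3% of such thinned cells with a UMI, and 6.94% of TNF+ T cells. Before thinning the 100 TNF- T cells held 2 Hmox1 UMIs in all. Gclm (chr3:122245557-122270732) and Gclc (chr9:77754535-77794485) encode both subunits of the enzyme that starts glutathione synthesis. Gclm was at 54.3 and 702 CPM (3.69, 3.35 to 4.06), and Gclc at 73.5 and 636 (3.11, 2.81 to 3.43). Srxn1, sulfiredoxin (chr2:152105516-152111376), was at 29.9 and 367 CPM (3.62, 3.15 to 4.13). Ptgr1, which reduces prostaglandins and leukotriene B4 (chr4:58965439-58987119), was at 2.30 and 71.9 CPM (4.97, 3.38 to 7.27). With all cells thinned to 3000 UMIs before the rule, the Ptgr1 ratio was 0.88, a bound set by 3 UMIs. The ratios themselves chose these genes, so their size is a description.

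The others of the 12 highest were of mixed function. Il10, the anti-inflammatory cytokine, was at 5.36 and 131 CPM (4.61, 3.54 to 5.94), and at 3.96 and 131 CPM in lung nonclassical monocytes. Slpi, a secreted inhibitor of leukocyte proteases, was at 65.1 and 1151 CPM (4.14, 3.83 to 4.48). Fpr1, the formyl peptide receptor, was at 12.2 and 120 CPM (3.29), and Slc22a4, a carrier of ergothioneine, at 13 and 173 (3.73). Homer3, Gde1 and Tmem267 completed the 12, and Tmem267, at 3.83 and 53.7 CPM, did not keep its direction when all cells were thinned before the rule. Unlike Hmox1, Il10 was not higher in the TNF+ Trem2 cells, where it was at 33.5 and 18.9 CPM.

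**Figure D2:**
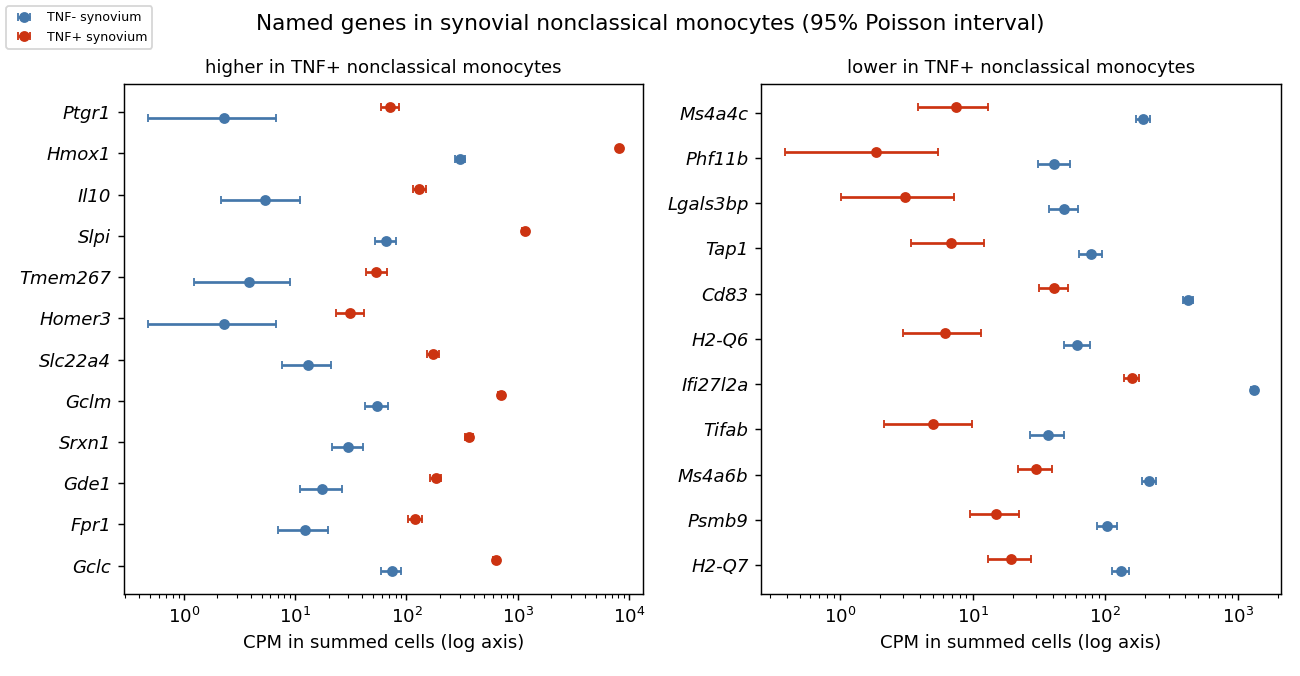
CPM (log axis) of the genes reported with the highest (left) and the lowest (right) TNF+ over TNF- ratio in synovial nonclassical monocytes under the naming rule. Points are summed cells of 1 library and whiskers exact 95% Poisson intervals. Hmox1 moves from 305 to 8052 CPM and Ifi27l2a from 1319 to 158. The genes were chosen for extreme ratios whose interval excluded equal levels. That the intervals of the libraries do not meet for any gene shown thus follows largely from this choice and is a description only.

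A list of 32 antioxidant genes, written after the first of them were seen, described the extent. Of 30 with at least 20 UMIs, 22 were at least 2-fold higher in TNF+ nonclassical monocytes and 0 at least 2-fold lower, with a median log2 ratio of 1.85. Over all genes in synovium, 6.89% were at least 2-fold higher and 10.6% lower. Among the thioredoxin branch, Prdx1 was at 676 and 5288 CPM, Txnrd1 at 248 and 999, and Txn1 at 324 and 1365. Among iron storage genes, Fth1 was at 5820 and 26963 CPM and Ftl1 at 4081 and 8749. Slc7a11, the cystine carrier, was at 475 and 1671 CPM, and the selective autophagy receptor Sqstm1 at 335 and 1273. Nfe2l2, which encodes the NRF2 factor that drives many of these genes, was at 704 and 716 CPM (0.02, -0.10 to 0.15), and Tkt, of the pentose phosphate path, was lower (305 and 171 CPM). In lung nonclassical monocytes the same list had a median of 0.14 and 4 genes at least 2-fold higher, where 7.09% of all 15100 genes were at least 2-fold higher and 8.74% lower. Per single cell, the sum of the list without ferritin had a median of 50.9 UMIs per 10000 in TNF- and 257 in TNF+ cells. All 183 TNF+ cells were above the TNF- median and 131 above the highest TNF- cell.

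The higher antioxidant levels in the TNF+ library were not limited to nonclassical monocytes. Hmox1 was at 189 and 3012 CPM in Trem2 cells (33 and 571 cells). It was at 160 and 2763 in Retnla, Mgl2 and Cd209a cells (171 and 29 cells) and 83.3 and 2038 in all kept barcodes. The list had a median of 1.06 in Trem2 cells, 1.72 in Retnla, Mgl2 and Cd209a cells and 0.17 in T cells, where 2 of 21 genes were at least 2-fold higher. The list median in T cells was thus close to their own median over all genes, 0.11. Single genes differed there, with Fth1 at 2042 and 4852 CPM (1.25, 1.17 to 1.33) and Hmox1 at 2 and 14 UMIs. Prdx1 (0.17, -0.12 to 0.44) and Ftl1 (0.08, -0.08 to 0.23) did not differ beyond counting error. The summed list was at 4659 and 7870 CPM in T cells. With a limit of 10% mitochondrial UMIs, 180 of the 183 TNF+ cells remained and the Hmox1 ratio was 4.73.

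**Figure D3:**
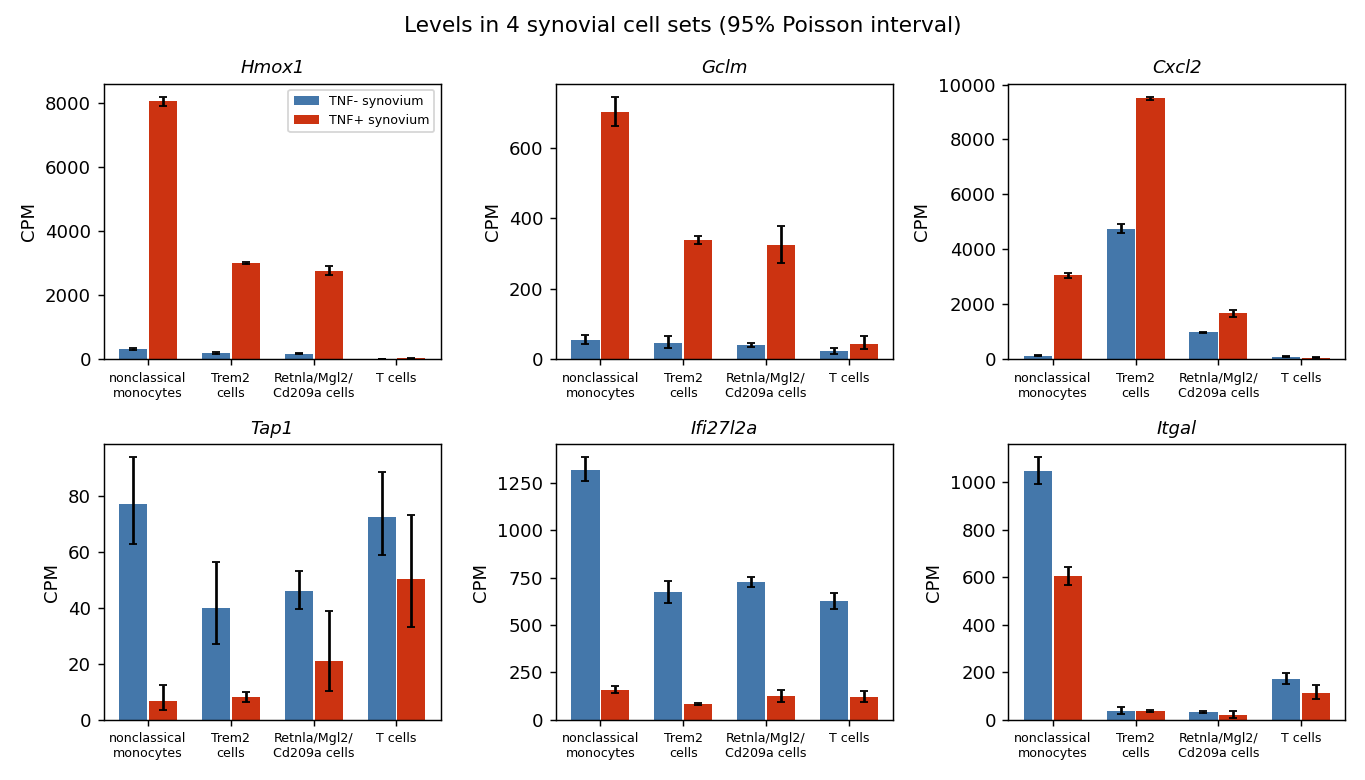
CPM of 6 genes (vertical axes) in 4 synovial cell sets, for the TNF- and the TNF+ library, with exact 95% Poisson intervals as whiskers. Hmox1 and Gclm are higher in the TNF+ library in all myeloid sets (Hmox1 from 189 to 3012 CPM in Trem2 cells). Tap1 is lower in them, at 77.3 and 6.87 CPM in nonclassical monocytes and 39.9 and 8.03 in Trem2 cells. It is at 46.1 and 21.2 in Retnla, Mgl2 and Cd209a cells and 72.7 and 50.5 in T cells.

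Interferon-stimulated genes were lower in TNF+ nonclassical monocytes. Of 39 genes listed, 27 had at least 20 UMIs. Of these, 22 were at least 2-fold lower, against 10.6% of all genes, and 0 at least 2-fold higher, with a median log2 ratio of -2.71. That median counts 4 genes at 0 UMIs in TNF+ cells at the bound set by 3 UMIs. It was -0.92 without cells that carried markers of other lineages (33 TNF- and 137 TNF+ cells left) and -0.71 with all cells thinned to 3000 UMIs before the rule, where fewer UMIs were counted. Ifi27l2a (chr12:103442167-103443680) was at 1319 CPM in TNF- and 158 in TNF+ cells (-3.06, -3.26 to -2.87). Slfn5 was at 82.7 and 2.50 CPM (-5.05, -6.95 to -3.65), Gbp2 at 37.5 and 1.87 (-4.32), and Isg15 at 51.3 and 8.12 (-2.66). Oas3 and Oasl2 had 32 and 31 UMIs in TNF- and 0 in TNF+ cells. The transmembrane antiviral genes Ifitm2 (1288 and 1229 CPM, -0.07) and Ifitm1 (26.0 and 28.1 CPM, 0.11) did not differ beyond counting error, while Ifitm3 was at 2592 and 1127 (-1.20). Ifitm3, Ifi27l2a and Ifitm2 together made up most of the summed list, which was at 6688 CPM in TNF- and 2986 in TNF+ cells.

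The direction was shared in part by other cells. In lung nonclassical monocytes the list had a median of -1.59, with Ifi27l2a at 605 and 183 CPM and Slfn5 at 138 and 28.0. In synovium it had a median of -2.05 in Trem2 cells, -0.91 in Retnla, Mgl2 and Cd209a cells and -0.28 in T cells. Ifi27l2a was lower in all of these, at 626 and 120 CPM in T cells. Cells were spread widely in the TNF- library, from 6.78 to 216 UMIs of the list per 10000 with a median of 53.9, and the TNF+ cells lay between 0 and 99.1 with a median of 28.6. The TNF+ cells were therefore below the TNF- median in 90.7% of cases, and the ranges overlapped. These sums rest mostly on Ifitm3, Ifi27l2a and Ifitm2 and say little about the other genes of the list.

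**Figure D4:**
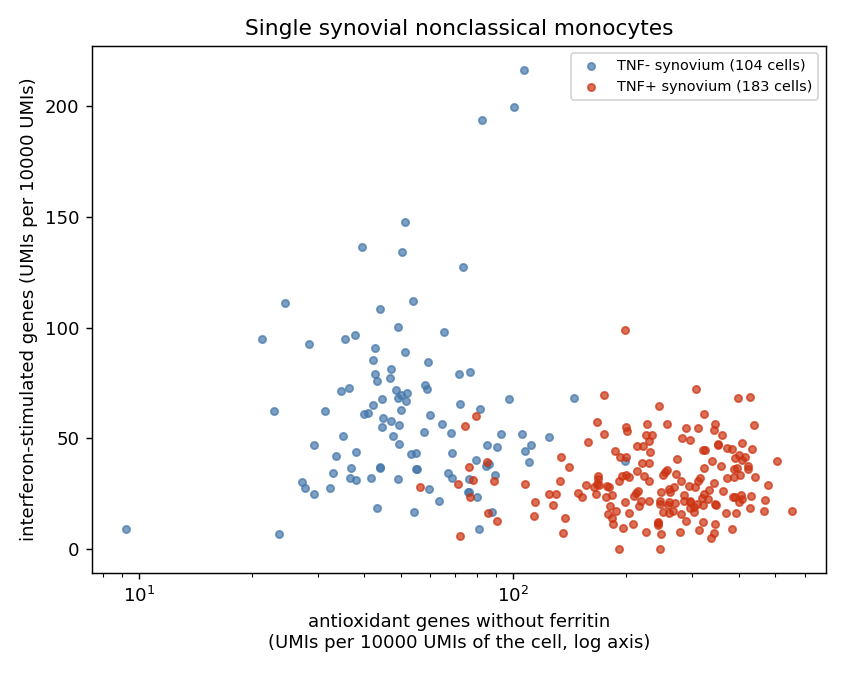
Each point is 1 synovial nonclassical monocyte, 104 from the TNF- and 183 from the TNF+ library. The horizontal log axis gives UMIs of antioxidant genes without ferritin and the vertical axis UMIs of interferon-stimulated genes, both per 10000 UMIs of the cell. TNF+ cells lie to the right (median 257 against 50.9) and lower (median 28.6 against 53.9), with overlap on the vertical axis. The vertical sum comes mostly from Ifitm3, Ifi27l2a and Ifitm2.

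Other genes among the 12 lowest included some of antigen presentation and of the monocyte membrane. Ms4a4c was at 192 and 7.50 CPM (-4.68, -5.65 to -3.85), Ms4a6b at 214 and 30.0 (-2.84), and the maturation receptor Cd83 at 420 and 41.2 (-3.35). Phf11b, Lgals3bp and Tifab, which belong to neither group, were at 36.7 to 49.0 CPM in TNF- and 1.87 to 5.00 in TNF+ cells. Tap1, the peptide pump, was at 77.3 and 6.87 CPM (-3.49), and the immunoproteasome subunit Psmb9 at 103 and 15 (-2.78). H2-Q6 and H2-Q7, at 61.2 and 6.25 and at 130 and 19.4 CPM, are near-identical genes between which reads may be split, as may Phf11b and Phf11d. Of 17 class I presentation genes, a list also written after values were seen, 11 were at least 2-fold lower and 0 higher, with a median of -1.34. Of all genes 10.6% were at least 2-fold lower. The class I list had a median of -0.82 in synovial Trem2 cells, -0.06 in Retnla, Mgl2 and Cd209a cells and -0.43 in T cells. The class I light chain B2m was at 3188 and 1703 CPM (-0.90) and H2-D1 at 2600 and 2083 (-0.32). Of 10 genes of class II presentation and costimulation with at least 20 UMIs, 4 were at least 2-fold lower, where 10.6% of all genes were. They were the peptide loading genes H2-DMa (159 and 58.7 CPM) and H2-DMb1 (142 and 39.99) and the costimulatory genes Cd80 (97.2 and 29.4) and Cd40 (16.1 and 5.00). All 12 lowest genes had a lower TNF+ value in lung as well, though by less.

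Promoters of a few of these genes are shown because the lists carry known recognition motifs. The windows are from RefSeq on GRCm38.p6 and run over the 250 bases before a start site, 5′ to 3′. Capitals mark a match, on either strand, to the antioxidant response element core TGACNNNGC in the first 3 and to the interferon-stimulated response element core, which is GAAA, any 2 bases and GAAA again, in the last 3, where overlapping matches are merged.
Gclm (chr3:122245307-122245556, plus strand): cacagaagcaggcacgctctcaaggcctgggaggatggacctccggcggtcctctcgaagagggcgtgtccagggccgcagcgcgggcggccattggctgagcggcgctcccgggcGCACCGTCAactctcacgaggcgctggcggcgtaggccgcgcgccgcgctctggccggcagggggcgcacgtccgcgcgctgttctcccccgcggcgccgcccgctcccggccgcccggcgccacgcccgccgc
Prdx1 (chr4:116685349-116685598, plus strand): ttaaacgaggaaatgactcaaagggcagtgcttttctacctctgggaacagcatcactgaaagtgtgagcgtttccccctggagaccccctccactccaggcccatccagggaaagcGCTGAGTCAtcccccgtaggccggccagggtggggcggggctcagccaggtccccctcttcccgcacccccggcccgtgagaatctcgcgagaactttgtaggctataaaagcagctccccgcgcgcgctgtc
Txnrd1 (chr10:82858956-82859205, plus strand): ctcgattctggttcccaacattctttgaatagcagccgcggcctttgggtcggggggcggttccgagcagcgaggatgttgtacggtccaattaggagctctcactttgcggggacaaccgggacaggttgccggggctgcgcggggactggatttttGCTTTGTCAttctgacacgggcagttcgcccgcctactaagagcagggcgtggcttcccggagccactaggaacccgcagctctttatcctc
Slfn5 (chr11:82951852-82952101, plus strand): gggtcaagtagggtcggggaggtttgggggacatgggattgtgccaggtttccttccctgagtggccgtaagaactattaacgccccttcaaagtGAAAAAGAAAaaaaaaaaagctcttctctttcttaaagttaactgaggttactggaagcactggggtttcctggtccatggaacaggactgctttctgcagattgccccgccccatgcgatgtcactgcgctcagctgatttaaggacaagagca
Gbp2 (chr3:142620413-142620662, plus strand): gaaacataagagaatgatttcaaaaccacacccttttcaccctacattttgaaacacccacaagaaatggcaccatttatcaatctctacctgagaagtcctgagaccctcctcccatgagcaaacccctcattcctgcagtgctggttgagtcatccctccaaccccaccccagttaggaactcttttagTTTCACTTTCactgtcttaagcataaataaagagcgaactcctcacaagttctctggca
Isg15 (chr4:156200819-156201068, minus strand): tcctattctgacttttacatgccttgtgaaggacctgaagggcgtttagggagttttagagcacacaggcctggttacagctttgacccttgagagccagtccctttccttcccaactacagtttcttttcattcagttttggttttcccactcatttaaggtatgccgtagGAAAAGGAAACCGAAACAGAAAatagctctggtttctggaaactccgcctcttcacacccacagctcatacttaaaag
Counted over windows from 250 bases before to 50 after any start site of a gene, the interferon-stimulated response element core was found in 19 of 31 interferon-stimulated genes with a window (61.3%), against 4.19% of the 6271 genes with at least 20 UMIs and 3.44% of all 32851 windows. TGACNNNGC was found in 9 of 26 antioxidant genes (34.6%), against 18.1% of the 6271 genes and 12.4% of all windows. It was also in 8 of the 31 interferon-stimulated genes (25.8%), while the interferon-stimulated response element core was in 0 of the 26 antioxidant genes. Of the 12 highest and 12 lowest named genes, 9 and 9 had a window, of which 2 and 0 held TGACNNNGC and 0 and 1 the interferon-stimulated response element core. A match describes the letters and is not evidence of binding.

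Transcription factors besides Nr4a1 tended to be lower in TNF+ nonclassical monocytes. Of 21 with at least 20 UMIs, 10 were at least 2-fold lower and 1, Tfec, at least 2-fold higher, with a median of -0.77. The shares over all genes were 10.6% lower and 6.89% higher. Klf2, which with Nr4a1 maintains these monocytes, was at 508 and 148 CPM (-1.78), Klf4 at 538 and 187 (-1.52), Runx3 at 141 and 40.0 (-1.82) and Irf1 at 116 and 35.6 (-1.71). Cebpb, at 2599 and 2921 CPM (0.17, 0.10 to 0.23), and Zeb2, at 1608 and 1809 (0.17), differed little. Klf2 was also lower in the other TNF+ synovial cells, at 355 and 49.8 CPM in Trem2 cells, 416 and 136 in Retnla, Mgl2 and Cd209a cells and 280 and 159 in T cells.

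Among 21 adhesion and migration genes, 7 were at least 2-fold lower and 2 higher, against 10.6% and 6.89% of all genes, with a median of -0.63. Ccr2 was at 235 and 48.7 CPM, Selplg, an adhesion ligand, at 197 and 72.5, and Pecam1 at 199 and 80.0. Ccr1, a receptor for CCL3 and CCL5, was higher, at 16.8 and 66.2 CPM (1.98, 1.30 to 2.71). The integrin beta chain of LFA-1, Itgb2, was at 660 and 780 CPM (0.24, 0.11 to 0.37). In lung Ccr1 was lower in the TNF+ library, at 38.5 and 20.8 CPM. Of 9 Fc receptor genes, 2 were at least 2-fold lower, where 10.6% of all genes were, a count too small to set apart from that share. They were Fcgr1 (35.2 and 5.62 CPM) and Fcgr3 (187 and 90.0), while the shared chain Fcer1g was at 2175 and 2952 (0.44).

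Targets of TNF and NF-kB went both ways. Of 26 genes, 3 were at least 2-fold higher and 4 lower, with a median of -0.52. Of all genes 6.89% and 10.6% were, and these counts are too small to set apart from those shares. The interval was below 0 for 16 genes, above 0 for 4 and spanned 0 for 6, but such shares over all genes were not counted. Cxcl2, which attracts neutrophils, was at 128 and 3051 CPM (4.58, 4.35 to 4.81). However, 115 of 183 TNF+ and 89 of 104 TNF- cells had no Cxcl2 UMI, and 11 TNF+ cells were above the highest TNF- cell. The 31 TNF+ cells with Ly6c2 and Ccr2 described above were at 7772 CPM and the other 152 at 1213, against 160 and 100 in TNF-. In Trem2 cells Cxcl2 was at 4752 and 9500 CPM and in T cells at 76.5 and 41.2. Sod2, mitochondrial superoxide dismutase, was at 196 and 549 CPM (1.49) and Ptgs2, cyclooxygenase 2, at 16.1 and 90.6 (2.49). Rel was at 750 and 270 CPM (-1.47), Nfkbiz at 302 and 127 (-1.25) and Ccl4 at 49.0 and 13.7 (-1.83). Il1b was at 1643 and 1698 CPM (0.05, -0.03 to 0.13) and mouse Tnf at 64.3 and 43.7 (-0.56). The human transgene itself is not counted in these data. In lung the list had a median of 0.32.

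Of 14 complement genes and receptors with at least 20 UMIs, 4 were at least 2-fold higher and 0 lower, with a median of 0.40. Of all genes 6.89% were at least 2-fold higher and 10.6% lower. The interval was above 0 for 7 genes, below 0 for 1 and spanned 0 for 6, but such shares over all genes were not counted. The lower gene was Itgax, an integrin chain of a complement receptor, at 81.1 and 60.6 CPM (-0.42). C3, the central component, was at 168 and 350 CPM (1.06, 0.83 to 1.29). With cells thinned, C3 was detected in 32.4% of TNF- and 63.1% of TNF+ nonclassical monocytes, against 0 of 100 TNF- and 1.39% of TNF+ T cells. Before thinning the T cells held 18 and 8 C3 UMIs. C3 was also at 14.2 and 207 CPM in Trem2 cells and 11.1 and 242 in Retnla, Mgl2 and Cd209a cells. All kept synovial barcodes had it at 856 and 923 CPM. Cfb, factor B of the alternative pathway, was at 16.1 and 49.99 CPM (1.64), and properdin, Cfp, at 22.2 and 63.1 (1.51). C5ar1, the anaphylatoxin receptor, was at 84.2 and 140 CPM (0.73, 0.40 to 1.08), but at 290 and 131 in Trem2 cells. C1qb was at 42.1 and 88.1 CPM (1.07), and C1qa was detected in 0.98% and 3.35% of thinned cells, so its UMIs came from few cells. In lung C3 was at 115 and 447 CPM and C5ar1 at 63.2 and 190.

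**Figure D5:**
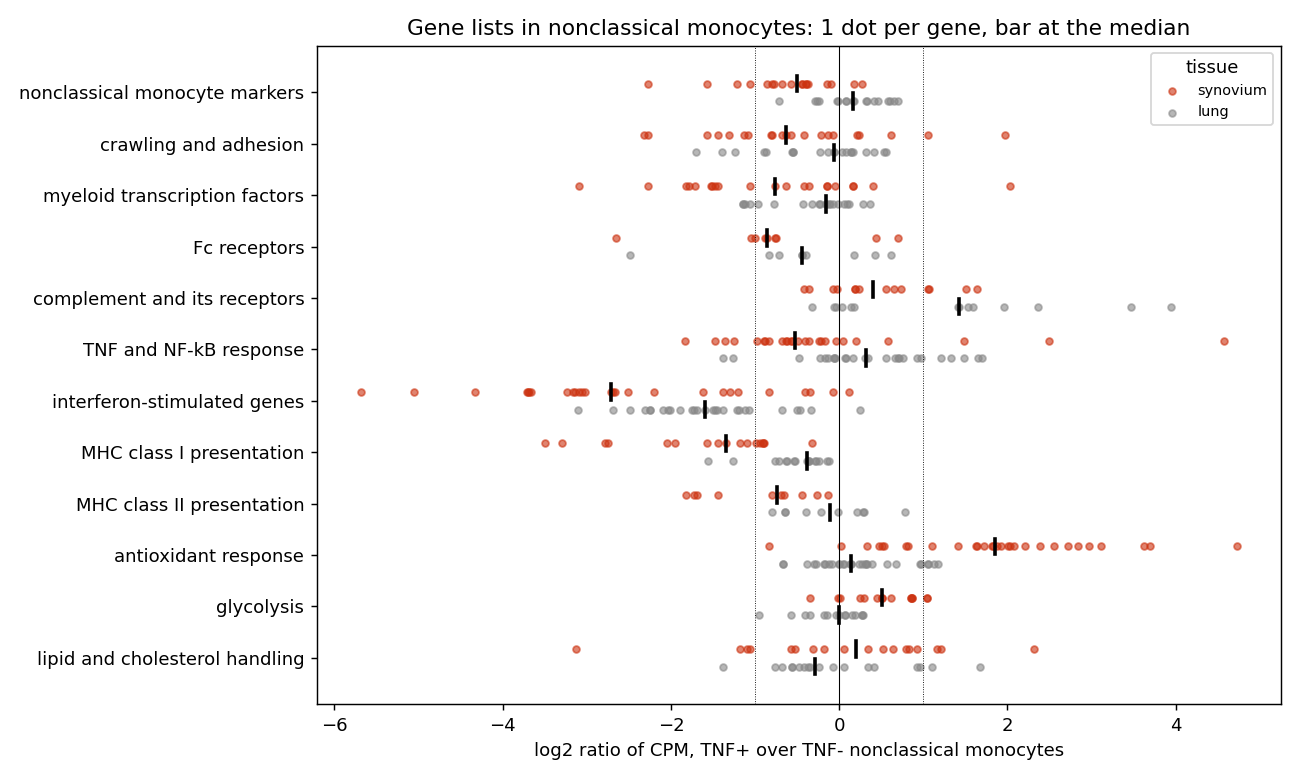
Log2 ratios of CPM, TNF+ over TNF-, in nonclassical monocytes of synovium (red) and lung (grey) for 12 gene lists. Each dot is 1 gene with at least 20 UMIs in synovium (for grey, in both tissues), black bars are medians, and dotted lines mark 2-fold. The antioxidant list has a median of 1.85 in synovium and 0.14 in lung, and the interferon-stimulated list -2.71 and -1.59.

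Synovial and lung nonclassical monocytes differed within each genotype, where tissue and digestion cannot be told apart. Of genes with at least 20 UMIs, 2.75% in the TNF- and 13% in the TNF+ libraries were at least 2-fold higher in synovium, and 27.8% and 30.8% lower. The naming rule gave the genes highest in synovium in both genotypes. Thbs1, thrombospondin 1, was at 1012 and 978 CPM in synovial against 2.56 and 1.95 in lung cells. Cd14, the lipopolysaccharide co-receptor, was at 664 and 1283 against 24.7 and 67.6 CPM, Slc7a11 at 475 and 1671 against 20.5 and 42.6, and the immediate-early factor Nr4a2 at 328 and 115 against 22.4 and 10.1. Cmss1 (13733 and 6939 CPM) and Cdk8 (2921 and 2248 CPM) were also high in synovial T cells, at 16807 and 8208 and at 4057 and 3668, and Dcn, a fibroblast gene, was at 67.4 and 11.9 CPM against 84.1 and 16.8 in T cells. These 3 genes were thus no lower in T cells than in nonclassical monocytes of the same library. Lrp1b, Srxn1 and Lsmem1 completed the 10.

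Of the 10 genes lowest in synovial relative to lung cells, 5 were genes of other lung or blood cells that lung T cells held as well. Scgb1a1, of club cells, had 0 UMIs in synovium and was at 326 and 145 CPM in lung nonclassical monocytes and 320 and 211 in lung T cells. Igha, of plasma cells, was at 22.6 and 2334 CPM in them and 19.5 and 2563 in lung T cells. Hbb-bs, Hba-a1 and Cxcl15 were likewise at 0 in synovial nonclassical monocytes and present in lung T cells. The RNase Zc3h12d was at 4.59 and 1.25 CPM in synovial and 75.5 and 51.1 in lung cells, and in lung T cells at 62.7 and 54.6. Abcg3 (16.1 and 6.25 against 150 and 77.7 CPM), Cyb561a3, Dhrs3 and Efcab11 were above their lung T cell levels, with Abcg3 at 26.4 and 31.2 CPM there.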

How the data were processed

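Single cells were captured with 10x Genomics 3′ chemistry. The deposited matrices hold the authors' UMI counts for each gene in each barcode, not normalized, made with Cell Ranger 7.0.1 (per the submitters' processing notes) on build mm10 (GRCm38), over 32285 genes. The total UMIs per library were 90427403 (TNF- synovium), 48454234 (TNF+ synovium), 96120328 (TNF- lung) and 155989523 (TNF+ lung). Counts of all chosen cells in a library were added up and scaled to CPM in Python 3.11.15 (scipy 1.17.1). Poisson (CPM), Clopper-Pearson (shares), Newcombe (differences of shares) and conditional binomial (ratios) intervals are at 95%. A count of 0 was set to 3 UMIs in ratios. Ratios were computed for genes with at least 20 UMIs over both synovial libraries, and the interval code was tested on simulated data.

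Trem2 cells had at least 2 Trem2 UMIs, and the second comparison set at least 5 of Retnla, Mgl2 and Cd209a and under 2 of Trem2. Both had Csf1r, under 2 UMIs of Treml4 and Adgre4, and the stromal limits. T cells had at least 2 UMIs of Cd3d, Cd3e and Cd3g and 0 of Csf1r, and numbered 100 in TNF- and 76 in TNF+ synovium. Named genes were the 12 highest and 12 lowest TNF+ over TNF- ratios among genes with at least 50 UMIs and an interval beyond 0. In the library where it was higher, a gene was found in at least 10% of cells, with no cell holding most UMIs. Its CPM there was at least that of all kept barcodes. These limits were not set in the other library. The 12 genes highest against other myeloid cells and the 10 highest and 10 lowest against lung were named in both libraries. Mitochondrial, ribosomal protein, numbered and rule genes were left out. Members, lists and tests were chosen with earlier results of these data known, and the antioxidant, class I and mediator lists after values of this comparison were seen. Ahsp, Mx1, Mx2, Clec7a and Aldoa were not analysed here. Results of a few genes are not reported here, though list counts and medians include them. Doublets were not removed, and Scrublet (scanpy 1.11.5) served as an alternative. Other alternatives changed the rule, depth, gene minimum, totals and centring. Gene positions are from GENCODE on GRCm38.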

Additional observations from a re-analysis of the deposited data

Results flagged for a closer look

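A number of markers of nonclassical monocytes had a lower level in the TNF+ than in the TNF- synovial library and a higher one in the TNF+ than in the TNF- lung library, each beyond the counting interval. They were picked by this pattern from the 12 highest genes, the 12 lowest and the markers outside the rule. The share of all genes with the pattern was not counted. The log2 ratio of TNF+ over TNF- in synovium was -0.79 for Itgal, -0.57 for Spn, -1.57 for Cx3cr1, -0.44 for Cd300e, -0.44 for Ceacam1, -0.15 for Gngt2 and -0.38 for Dusp16. Ceacam1 was at 0.11 without cells holding markers of other lineages, and Cd300e was near 0 (-0.00072) with cells thinned before the rule. The integrin gene Itgal was at 1047 and 604 CPM in synovium and 1054 and 1117 in lung. Cx3cr1 was at 232 and 78.1 CPM in synovium and 520 and 582 in lung. The difference between tissues was not tested, as each value rests on 1 library.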

How the results depend on the processing

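No paired analysis was possible because each genotype and tissue is 1 library, and for the same reason no replicate could be left out. The TNF+ share of kept barcodes was 4.49% with at least 3 UMIs of Treml4 and Adgre4. With at least 1 UMI of each, the shares were 1.27% and 3.97%, a difference of 2.71 points. Without cells holding at least 3 UMIs of T, B, NK, neutrophil, endothelial and mural markers, which left 33 TNF- and 137 TNF+ cells, the shares were 0.497% and 3.92%, 528 genes were at least 2-fold lower, Ceacam1 reversed to 0.11 and the median of 22 secreted mediators (0.55 in the report's settings) to -0.43. Some of those lineage markers, such as Csf3r, are expressed by monocytes too. With all cells thinned to 3000 UMIs before the rule (62 and 112 cells), the shares were 1.04% and 3.78%, the difference 2.74 points, 256 genes were at least 2-fold lower, and Tmem267 (-0.27), Cd300ld (0.032) and the mediator median (-0.17) reversed, and the median of the pattern receptors turned from -0.43 to 0.27. A minimum of 100 UMIs gave 223 genes higher and 230 lower, and of 1 UMI 2271 and 3251, against 539 and 830. Of 40 named and marker genes, 37 kept their direction under every alternative run, as did 15 of 17 list medians. The named genes were chosen for extreme ratios in the same cells, so the first count is a description. With thinned cells Ptgr1 was at 0.88 and Homer3 at 0.73, both bounds. Ifi27l2a ranged from -3.16 to -2.58 and Hmox1 from 4.68 to 5.42. A total without Cmss1, Malat1 and like transcripts, added after the data were seen, gave 507 genes higher and 900 lower, and centring on the median ratio gave 653 and 712.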

Other observations

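The median TNF+ over TNF- ratio of glycolysis genes was above that of all genes in synovial nonclassical monocytes. Of 15 with at least 20 UMIs, 2 were at least 2-fold higher, Gapdh (504 and 1039 CPM) and Pgam1 (148 and 304), near the 6.89% of all genes, and 0 lower. The median log2 ratio was 0.51, against -0.10 over all genes. The interval was above 0 for 10 genes and spanned 0 for 5, but such shares over all genes were not counted. Lysosomal lipase Lipa was at 110 and 551 CPM and the cholesterol exporter Abca1 at 88.0 and 167, while lipoprotein lipase, Lpl, was at 49.0 and 5.62. Of 22 secreted mediators with at least 20 UMIs, 10 were at least 2-fold higher, against 6.89% of all genes, and 1 lower. Their median of 0.55 turned to -0.43 without cells holding markers of other lineages and to -0.17 with thinned cells. Many of these UMIs came from few cells. Cxcl3 had 0 UMIs in TNF- and 121 in TNF+ cells, but 6.01% of TNF+ cells held it and 1 cell had 54.5% of its UMIs. Spp1 had 0 and 47 UMIs, in 7.65% of TNF+ cells. Vegfa was at 7.65 and 55.6 CPM, in 14.2% of TNF+ cells, and Areg at 13.8 and 88.1, in 7.10%.

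The pattern receptors Clec4e and Clec4n, which sense glycolipids and fungal sugars, were at 393 and 920 CPM and at 87.3 and 263, while Tlr8 was at 31.4 and 12.5 and Nod2 at 52.8 and 12.5. The median of 15 pattern receptors, -0.43, turned to 0.27 with thinned cells. Among survival genes, Bcl2 was at 220 and 85.0 CPM and its antagonist Bcl2l11 at 144 and 267. Of 18 cell cycle genes, 6 had at least 20 UMIs, with a median of 0.40. The interval was above 0 for 3, the chromatin genes H2afz (633 and 842 CPM) and Hmgb2 (273 and 447) and the tubulin regulator Stmn1 (14.5 and 28.7), which are not limited to dividing cells. The share of all genes with such an interval was not counted. Mki67 had 7 and 3 UMIs and Top2a 5 and 11, while the cyclins Ccnb1 and Ccna2 had 0 in both libraries.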
